A study of Mus musculus with 24 samples.

Results

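The genes described here encode enzymes of heme synthesis, among them the erythroid form of the first enzyme, and the enzyme that breaks heme down. The 9 genes are Alas1, Alas2, Alad, Uros, Urod, Cpox, Ppox, Fech and Hmox1, chosen by symbol from the 26267 genes of the deposited table, in which all 9 were present. PolyA RNA was profiled in LSK cells of mouse bone marrow, which are sorted as negative for lineage markers and positive for Sca-1 and Kit and are rich in blood stem cells and early progenitors. The mice carried a knockout of the Fanconi anemia gene Fancg (FancgKO), that knockout with an Mdm4 transgene (FancgKO_Mdm4Tg), the transgene alone (Mdm4Tg) or neither (WT), and had received poly(I:C), which mimics viral RNA and sets off an interferon response, or PBS as the vehicle. With poly(I:C) there were 3 FancgKO, 2 FancgKO_Mdm4Tg, 2 Mdm4Tg and 3 WT libraries. With PBS there were 4 FancgKO, 3 FancgKO_Mdm4Tg, 3 Mdm4Tg and 4 WT libraries. The dose and timing of poly(I:C), the age of the mice, the deleted part of Fancg and the promoter of the transgene are not given in the labels. No label ties a library to an animal of its own, so p-values measure the spread between these samples, which may be technical.

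Heme synthesis starts in the mitochondrion, where ALA synthase joins glycine to succinyl-CoA, moves to the cytosol for the steps that build the porphyrin ring, and returns to the mitochondrion, where ferrochelatase inserts iron. ALA synthase limits the rate: Alas1 encodes the form that most cells use and that heme itself represses, and Alas2 the form of red cell precursors, whose mRNA is under iron control. Hemoglobin takes most of the body's heme, and cytochromes, catalase and the myeloperoxidase of granulocytes need it as well. Heme oxygenase 1, encoded by Hmox1, opens the ring and releases iron, and is known for its strong induction by heme and oxidative stress.

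Mdm4 separated the transgenic libraries from the others, with a normalised count of 5023 to 7105 in the 10 libraries with the transgene and 751 to 1293 in the 14 without it. Fancg did not separate the knockouts, with 26.1 to 71.4 in 12 FancgKO or FancgKO_Mdm4Tg libraries and 41.3 to 78.4 in the other 12. Since the deleted part is not given, this count checks nothing about the knockout label. Kit lay at 1483 to 2414 and Ly6a, which encodes Sca-1, at 11.7 to 45.9 over the 24 libraries. Depth was 1697596 to 8229715 reads in poly(I:C) libraries and 807686 to 4801746 reads in PBS libraries. A count of 0 allows up to 3 reads, which is 0.924 to 9.80 normalised counts depending on the library, and this limit covers counting error only. The library titles end in _d or in _d_2, 12 libraries each with all 8 groups in both, and the labels do not say what the endings mean. Results are therefore also given within each ending. Xist, the RNA of the inactive X chromosome, was at most 1.57 in the libraries ending in _d_2. Within _d it was 7800 and 18007 in FancgKO with PBS, and 13767 and 363 in FancgKO with poly(I:C) (replicates 6 and 7 each). It was 5943 and 20207 in WT with poly(I:C) (replicates 6 and 7), and at most 24.8 in the other libraries ending in _d. The part of Xist in differences between the endings was not tested.

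In GRCm38, Alas1 lies on the minus strand at chr9:106233455-106248654, Alas2 on the plus strand at chrX:150547375-150570638, Cpox on the plus strand at chr16:58670292-58717636 and Hmox1 on the plus strand at chr8:75093621-75100589. Alad at chr4:62509169-62519918, Urod at chr4:116989965-116994413, Uros at chr7:133686243-133710072 and Ppox at chr1:171275990-171281186 all lie on the minus strand. The exons of Ppox share 791 bases, 17.5% of their length, with B4galt3 on the other strand, and those of Alas2 share 311 bases with Apex2. Whether strand was used in counting is not given in the sources used here, so reads from such stretches cannot be told apart.

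Promoter windows of 250 bases before the RefSeq start (GRCm38.p6) are shown for Alas1 and Cpox, the 2 members with the largest differences below, and for Alas2, which was almost without reads. Windows were found for 7 members, Alas1, Alas2, Alad, Uros, Urod, Cpox and Ppox. Capitals mark matches to searched motifs, and each window runs 5′ to 3′ on the strand of its gene. The windows are chr9:106247731-106247980 (minus strand, the more downstream of the 2 Alas1 starts), chr16:58669958-58670207 (plus strand) and chrX:150547167-150547416 (plus strand).
Alas1: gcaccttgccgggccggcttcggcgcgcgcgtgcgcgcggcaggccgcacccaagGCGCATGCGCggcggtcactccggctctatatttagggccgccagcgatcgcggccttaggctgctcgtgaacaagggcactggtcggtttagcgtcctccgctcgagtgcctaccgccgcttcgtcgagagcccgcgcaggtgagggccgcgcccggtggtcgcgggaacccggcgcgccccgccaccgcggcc
Cpox: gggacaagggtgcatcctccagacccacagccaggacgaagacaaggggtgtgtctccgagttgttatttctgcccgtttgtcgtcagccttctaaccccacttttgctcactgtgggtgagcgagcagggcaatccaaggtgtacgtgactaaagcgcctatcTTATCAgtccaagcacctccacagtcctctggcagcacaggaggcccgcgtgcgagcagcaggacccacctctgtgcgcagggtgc
Alas2: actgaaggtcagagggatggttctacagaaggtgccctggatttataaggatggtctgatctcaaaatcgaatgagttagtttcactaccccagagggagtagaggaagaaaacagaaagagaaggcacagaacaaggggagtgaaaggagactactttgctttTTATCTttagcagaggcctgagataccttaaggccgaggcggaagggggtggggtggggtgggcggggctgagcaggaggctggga
The capitals in the Alas1 window mark the palindromic motif of NRF1, a regulator of nuclear genes for mitochondrial proteins, at positions -195 to -186 from the start. It was present in 0.782% of the 32851 promoter windows of this length. The capitals in Cpox and Alas2 mark GATA motifs, the sites of factors such as GATA1, at -86 to -81 in both windows. The form searched as TGATAA was found in Cpox on the reverse strand, and 7.94% of all windows held it on either strand. The other form, searched as AGATAA, was found in Alas2 on the reverse strand, and 9.99% of all windows held it. TGATAA was also found in the downstream window of Uros, at -68 to -63. The interferon response motif, a pair of GAAA blocks set 2 bases apart, was present in 2.98% of windows and, among the members, in Ppox at -30 to -21. The antioxidant response motif, searched as TGACNNNGC, was present in 10.2% of windows and in none of the 10 windows of the members. These motifs do not overlap each other in the windows shown, and a match is a description of letters, not of a bound site.

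Per kilobase of exon, Alas1 had the highest mean level of the members in poly(I:C) libraries and the third highest in PBS libraries. In poly(I:C) libraries the order was Alas1 (58.0 ± 20.7 normalised counts per kb, SD, n = 10), Alad (32.3 ± 7.37), Urod (26.3 ± 3.64), Cpox (24.2 ± 6.80), Ppox (11.7 ± 3.84), Fech (7.88 ± 1.44), Uros (7.56 ± 0.903), Hmox1 (1.01 ± 0.783) and Alas2. In PBS libraries it was Alad (28.7 ± 8.01, SD, n = 14), Urod (21.1 ± 5.85), Alas1 (19.8 ± 12.6), Cpox (14.0 ± 3.11), Ppox (13.0 ± 2.27), Uros (6.30 ± 1.62), Fech (6.00 ± 0.901), Hmox1 (1.58 ± 1.23) and Alas2. Neighbours in these orders overlapped within 1 SD, except Cpox and Ppox, Uros and Hmox1, and Hmox1 and Alas2 with poly(I:C), and Ppox and Uros, Fech and Hmox1, and Hmox1 and Alas2 with PBS. Lengths were taken over all annotated exons, which lowers the values of genes with long untranslated ends.

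Alas1, the rate-limiting enzyme outside red cells, was the member that rose most with poly(I:C). Averaged over the 4 genotypes its normalised count was 3.11-fold higher with poly(I:C), and Cpox (1.70-fold) and Fech (1.30-fold) were higher as well. Of the 7 members that passed the filter on low values, 3 rose and 0 fell, while 11.9% of all 12628 genes tested rose and 11.6% fell. The median log2 difference was 0.36 over the 7 members and 0.01 over all genes tested. The test was limma on log2(normalised count + 1), in which a fold change understates the change of low genes, with Benjamini-Hochberg adjustment over the 12628 genes. In bulk RNA, fewer cells of a type and less RNA per cell cannot be told apart.

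In FancgKO mice Alas1 had normalised counts of 555, 143 and 447 with poly(I:C) (replicates 6, 7 and 8) and of 78.3, 104, 323 and 134 with PBS (replicates 2, 4, 6 and 7). Replicate 7 was the lowest poly(I:C) library of the series and replicate 6 the highest PBS library, so the groups overlapped. In FancgKO_Mdm4Tg mice the values were 220.4 and 402 with poly(I:C) (replicates 7 and 8) and 68.9, 103 and 102 with PBS (replicates 2, 7 and 8). In Mdm4Tg mice they were 336 and 278 with poly(I:C) (replicates 7 and 8) and 94.9, 108 and 80.5 with PBS (replicates 2, 7 and 8). In WT mice they were 518, 345 and 339 with poly(I:C) (replicates 6, 7 and 8) and 64.8, 276, 102 and 68.4 with PBS (replicates 2, 6, 7 and 8). The groups of the last 3 genotypes did not overlap, although the PBS library of replicate 6 in WT came close. In the averaged comparison Alas1 differed by a log2 of 1.64 ± 0.26 (SE, 95% interval 1.10 to 2.18, limma adjusted p = 6.07e-04), with 10 poly(I:C) and 14 PBS libraries.

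The size of the Alas1 difference varied with the title ending. Within _d_2 the 4 poly(I:C) libraries lay between 278 and 447 and the 8 PBS libraries between 64.8 and 104, without overlap. Within _d the 6 poly(I:C) libraries lay between 143 and 555 and the 6 PBS libraries between 102 and 323, with overlap. The log2 difference was 2.13 within _d_2 and 1.12 within _d. Within _d_2 each genotype had 1 poly(I:C) library, so the spread there came from PBS libraries alone and calls are not given. Within _d the spread came from replicates 6 and 7 of FancgKO and WT. The difference between the 2 log2 values was not tested. Within _d limma called 0 of 7 members and 0 of 12628 genes, with 1 member, Alas1, and 1367 genes at an unadjusted p under 0.05. Within _d_2 the log2 differences of the members ran from -0.54 (Ppox, the only negative one) to 2.13 (Alas1).

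Cpox encodes coproporphyrinogen oxidase, which acts between the outer and inner mitochondrial membranes. Its normalised counts were 181, 90.1 and 181 with poly(I:C) and 84.6, 106, 131 and 49.0 with PBS in FancgKO mice. They were 109 and 198 with poly(I:C) and 125, 81.1 and 88.4 with PBS in FancgKO_Mdm4Tg mice, so the groups of both knockout genotypes overlapped. In Mdm4Tg mice they were 145 and 185 with poly(I:C) and 87.4, 82.5 and 82.4 with PBS. In WT mice they were 237, 118 and 163 with poly(I:C) and 103, 98.2, 80.3 and 108 with PBS. Every poly(I:C) library of Mdm4Tg and WT mice stood above the PBS libraries of its genotype. The averaged log2 difference was 0.76 ± 0.17 (95% interval 0.42 to 1.10, limma adjusted p = 0.0033). It was 0.89 within _d_2, where the spread came from PBS libraries alone, and 0.70 within _d, where limma called no member.

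Fech encodes ferrochelatase, which closes the pathway by inserting iron. Its normalised counts were 113, 86.8 and 125 with poly(I:C) and 79.9, 78.2, 111 and 75.1 with PBS in FancgKO mice. They were 67.1 and 135 with poly(I:C) and 63.6, 97.5 and 90.1 with PBS in FancgKO_Mdm4Tg mice. Both sets overlapped, and of the FancgKO_Mdm4Tg poly(I:C) libraries replicate 7 lay among the PBS values and replicate 8 above them. In Mdm4Tg mice the counts were 108 and 124 with poly(I:C) and 72.5, 80.5 and 71.1 with PBS. In WT mice they were 113, 102 and 116 with poly(I:C) and 76.3, 88.5, 81.9 and 96.1 with PBS, and neither of these sets overlapped. The averaged log2 difference was 0.38 ± 0.11 (95% interval 0.14 to 0.62, limma adjusted p = 0.021). Without FancgKO_Mdm4Tg poly(I:C) replicate 8 it was 0.26 (limma adjusted p = 0.11) and without Mdm4Tg poly(I:C) replicate 8 it was 0.36 (limma adjusted p = 0.054), so the call rested on each of these libraries. The log2 difference was 0.68 within _d_2, where the spread came from PBS libraries alone, and 0.08 within _d, where limma called no member.

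**Figure D1:**
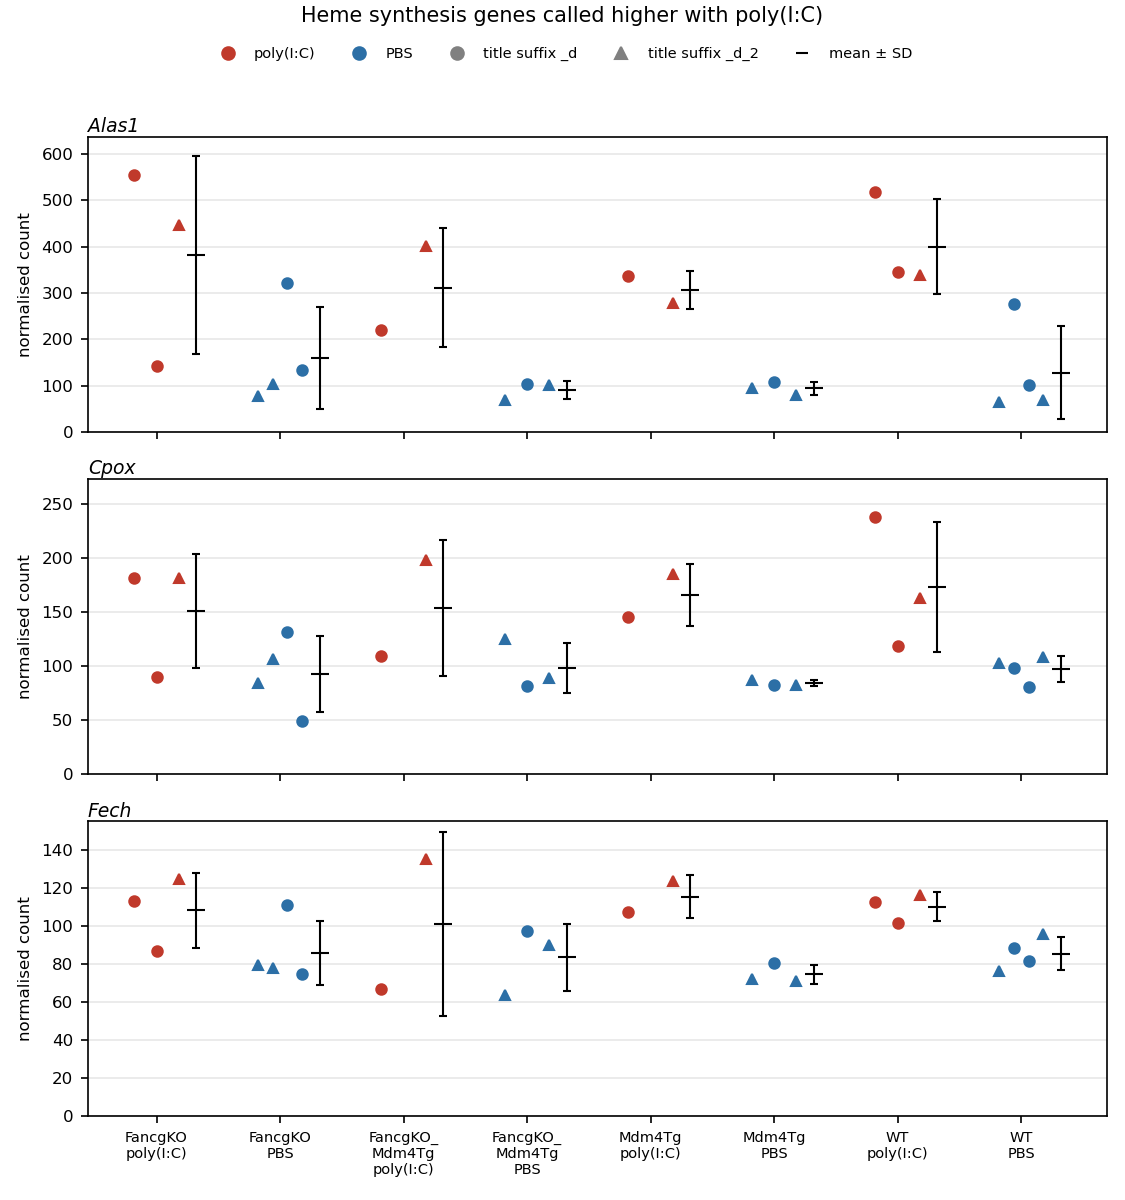
Normalised counts of Alas1, Cpox and Fech in each of the 24 libraries, by genotype and treatment, with poly(I:C) in red and PBS in blue, circles for titles ending in _d and triangles for _d_2, and the group mean ± SD in black. Poly(I:C) libraries with triangles stand above all PBS libraries with triangles for all 3 genes, while circles overlap, and the 2 high PBS values of Alas1 (323 and 276) are both replicate 6.

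Alad, Uros and Urod, which act between ALA synthase and coproporphyrinogen oxidase, were not called. Alad encodes ALA dehydratase, which joins ALA molecules into porphobilinogen, and ran from 42.9 to 86.6 (median 61.4) with poly(I:C) and from 34.3 to 78.4 (median 53.4) with PBS. Its log2 difference was 0.20 ± 0.16 (limma adjusted p = 0.38). Uros encodes uroporphyrinogen III synthase, which closes the ring, and ran from 23.7 to 33.5 (median 26.4) with poly(I:C) and from 12.5 to 33.6 (median 22.5) with PBS, a log2 difference of 0.29 ± 0.14 (limma adjusted p = 0.14). Urod encodes uroporphyrinogen decarboxylase, which trims the ring's side chains. It ran from 57.3 to 81.9 (median 67.1) with poly(I:C) and from 38.1 to 91.5 (median 53.0) with PBS. Its log2 difference of 0.36 ± 0.13 stood at the threshold (limma adjusted p = 0.055, edgeR 0.042, DESeq2 0.037). For these 3 genes the 95% intervals ran from -0.13 to 0.53, from -0.005 to 0.58 and from 0.08 to 0.63, in the order given.

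Ppox encodes protoporphyrinogen oxidase, the step before ferrochelatase, and was the only member of the 7 with a negative averaged difference. It ran from 29.2 to 76.9 (median 52.9) with poly(I:C) and from 43.6 to 75.3 (median 58.4) with PBS, a log2 difference of -0.20 ± 0.16 (95% interval -0.54 to 0.14, limma adjusted p = 0.38). With the title ending as a covariate over all 24 libraries it was called lower (-0.30 ± 0.11, limma adjusted p = 0.041). Within _d_2 the 4 poly(I:C) libraries had 29.2 to 40.4 and the 8 PBS libraries 43.6 to 59.6, without overlap. The log2 difference there was -0.54, and the spread came from PBS libraries alone. Within _d the 6 poly(I:C) libraries had 50.3 to 76.9 and the 6 PBS libraries 58.4 to 75.3, a log2 difference of -0.05. The overlap of Ppox with B4galt3 applies to these counts.

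Alas2 and Hmox1 did not pass the filter on low values, which asked for 10 or more normalised counts in 2 or more libraries, and were not tested. Alas2 had 2 reads in all 24 libraries together, 1 in replicate 8 of FancgKO_Mdm4Tg mice and 1 in replicate 8 of WT mice, both with poly(I:C). It had 0 reads in the other 22 libraries. Hmox1 had 68 reads in all, with 0 to 4.72 normalised counts (median 1.57) in poly(I:C) libraries and 0 to 7.63 (median 2.10) in PBS libraries. At these depths no difference of Hmox1 could be read, and no library of either treatment reached a normalised count of 10.

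**Figure D2:**
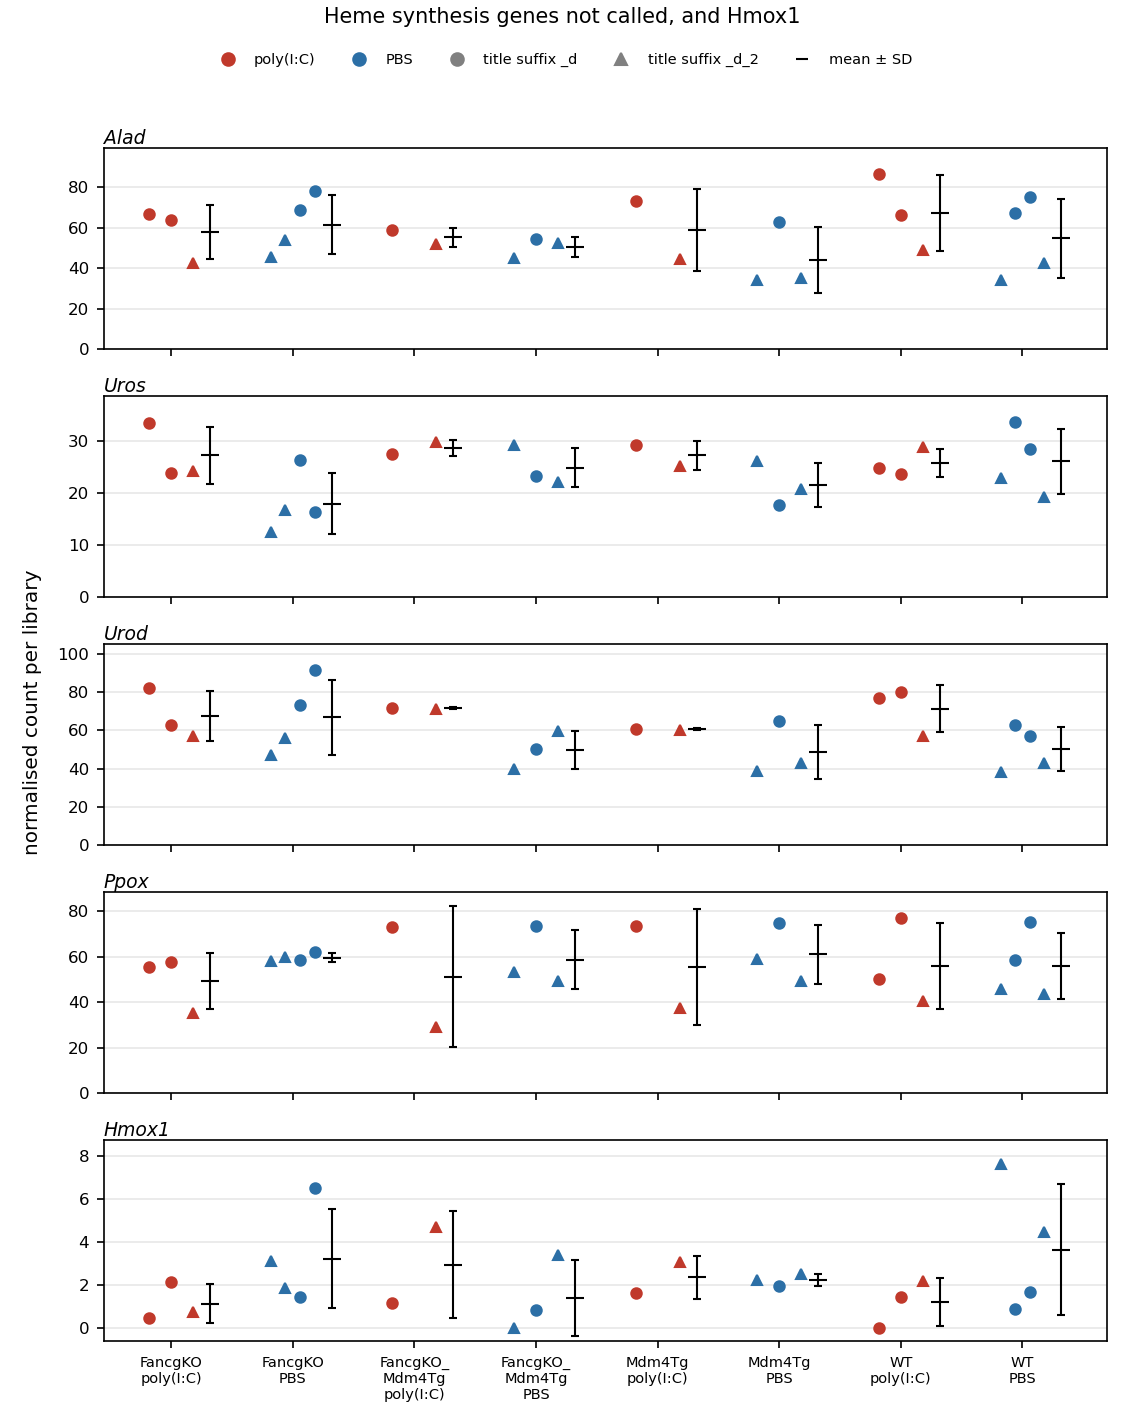
Normalised counts of Alad, Uros, Urod, Ppox and Hmox1 in each of the 24 libraries, laid out as for Alas1, with poly(I:C) in red, PBS in blue, circles for _d, triangles for _d_2 and the group mean ± SD in black. The treatments overlap for Alad and Uros, the triangles of Ppox are lower with poly(I:C) (29.2 to 40.4 against 43.6 to 59.6 with PBS), and Hmox1 stays under 10 throughout.

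Within each genotype the poly(I:C) response was measured on 5 to 7 libraries, and limma called 0 of 7 members in each. The background was 0.0158% of genes called in WT and 0% in FancgKO, FancgKO_Mdm4Tg and Mdm4Tg. At an unadjusted p under 0.05 there were 3 members in FancgKO (Alas1, Cpox and Uros), 1 in FancgKO_Mdm4Tg (Alas1), 3 in Mdm4Tg (Alas1, Cpox and Fech) and 3 in WT (Alas1, Cpox and Urod). At the same threshold there were 914 of 12628 genes in FancgKO, 1082 in FancgKO_Mdm4Tg, 1605 in Mdm4Tg and 1881 in WT. edgeR and DESeq2 also called 0 members in each genotype, and their shares of all genes called there are not reported here. The log2 difference of Alas1 was 1.26 ± 0.47 in FancgKO, 1.72 ± 0.57 in FancgKO_Mdm4Tg, 1.69 ± 0.57 in Mdm4Tg and 1.88 ± 0.47 in WT. That of Cpox was 0.71 ± 0.30 in FancgKO, 0.60 ± 0.36 in FancgKO_Mdm4Tg, 0.96 ± 0.36 in Mdm4Tg and 0.77 ± 0.30 in WT. The limma adjusted p of Alas1 ranged from 0.085 in WT to 0.68 in FancgKO. The FancgKO value rested on single libraries, with 0.88 without poly(I:C) replicate 6 and 1.85 without poly(I:C) replicate 7, and it was 0.44 within _d and 2.29 within _d_2.

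In WT, where same-numbered libraries deviated together, adding the replicate number to the fit as a block called 2 of 7 members, Alas1 and Cpox, at a background of 6.88%. Same-numbered libraries also share the title ending, so the block takes in the ending as well. With the block the log2 difference was 1.66 ± 0.28 for Alas1 (limma adjusted p = 0.0021) and 0.80 ± 0.18 for Cpox (limma adjusted p = 0.012). In the 3 same-numbered WT pairs the ratio of poly(I:C) to PBS for Alas1 was 1.88 in replicate 6, 3.38 in replicate 7 and 4.95 in replicate 8. The libraries of the first 2 of these pairs also differed in Xist, the RNA of the inactive X chromosome, with 5943 (replicate 6) and 20207 (replicate 7) with poly(I:C) and 24.8 (replicate 6) and 3.34 (replicate 7) with PBS. Xist was fitted as a covariate over all libraries, but its part in these pair ratios was not tested.

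**Figure D3:**
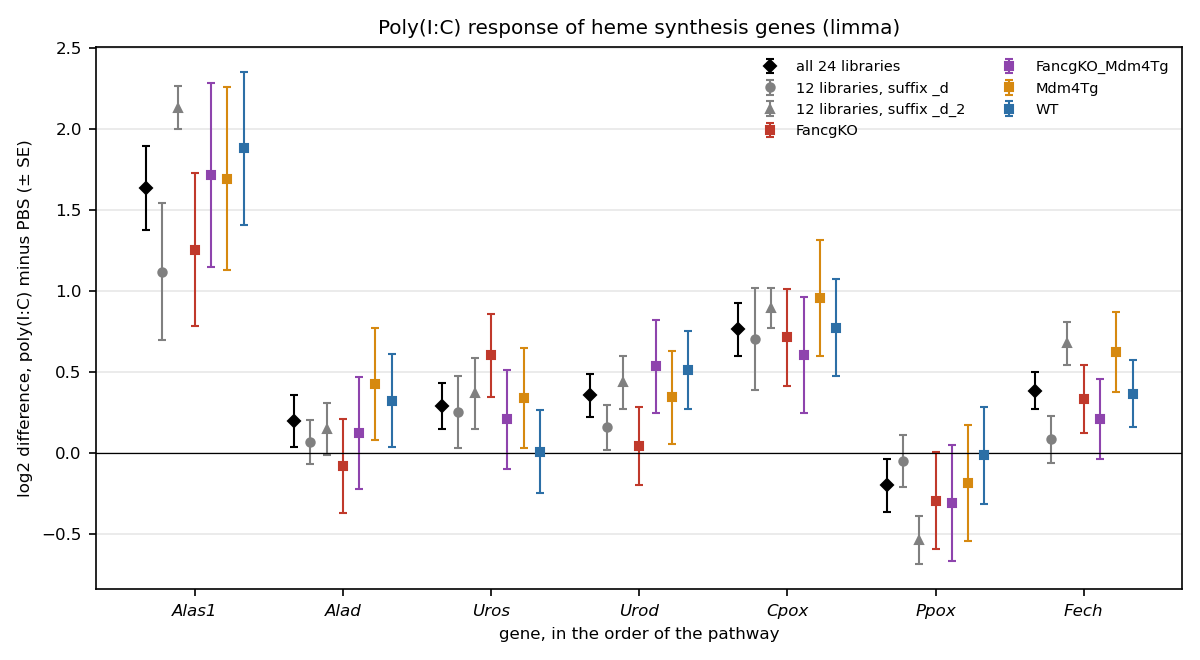
Log2 difference between poly(I:C) and PBS (limma, ± SE) for the 7 members tested, in pathway order, averaged over genotypes from all 24 libraries (black diamonds), from the 12 libraries of each title ending (grey), and in each genotype (coloured squares). Alas1 stands between 1.12 and 2.13 in every fit shown, Cpox between 0.60 and 0.96, and Fech is at 0.08 in the libraries ending in _d. The SE for _d_2 rests on the spread between PBS libraries alone.

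The response of the members was next compared between genotypes, and the genotypes with each other. The response in FancgKO, in Mdm4Tg and in FancgKO_Mdm4Tg minus that in WT, and that in FancgKO_Mdm4Tg minus that in FancgKO, gave 0 of 7 members called by limma, 0 at an unadjusted p under 0.05 without the replicate block, and 0 by edgeR and DESeq2, at a background of 0%. The widest 95% intervals were those of Alas1, from -2.01 (FancgKO minus WT) to 1.99 (FancgKO_Mdm4Tg minus FancgKO), so differences of up to about 4-fold between responses were within the error. These comparisons share control libraries.

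Loss of Fancg, averaged over Mdm4 status and treatment in 12 and 12 libraries, gave log2 differences of -0.08 (Cpox) to 0.15 (Urod), and limma called 0 of 7 at a background of 0.0158%. The smallest unadjusted p was 0.28, and the 95% intervals of all 7 lay between -0.54 and 0.55. With the replicate block, which counts as paired here, the differences were -0.10 (Cpox) to 0.16 (Urod). The Mdm4 transgene, averaged over Fancg status and treatment in 10 and 14 libraries, gave differences of -0.32 (Alas1) to 0.10 (Uros), and limma called 0 of 7 at a background of 0.00792%. The smallest unadjusted p was 0.23, and the intervals lay between -0.86 and 0.39. The replicate block, which counts as paired here too, moved the range to -0.07 (Alad) to 0.24 (Uros). Alas1 then stood at 0.03 ± 0.17 (SE), so its negative difference was not kept with the block. Xist was at most 3.93 in the 10 libraries with the transgene and reached 20207 in the 14 without it. With Xist as a covariate limma also called 0 members.  The share of all genes called in that fit is not reported here. edgeR and DESeq2 called 0 members in either comparison, and their shares of all genes called are not reported here.

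In the 8 comparisons of single genotypes within a treatment, limma, edgeR and DESeq2 called 0 of 7 members. The background was 0% to 0.00792% in limma, and that of edgeR and DESeq2 is not reported here. Without the replicate block, 1 member had an unadjusted p under 0.05 in limma, Uros in FancgKO against WT with PBS, where 497 of 12628 genes did. Uros had 12.5, 16.8, 26.3 and 16.3 in FancgKO libraries (replicates 2, 4, 6 and 7) and 22.9, 33.6, 28.4 and 19.3 in WT libraries (replicates 2, 6, 7 and 8), a log2 difference of -0.53 ± 0.24 (limma adjusted p = 1.00). The groups overlapped, while in each of the 3 same-numbered pairs the FancgKO library was lower. With the block, which counts as paired here, Uros differed by -0.56 ± 0.24 (limma adjusted p = 0.41) and Urod by 0.44 ± 0.17 (limma adjusted p = 0.36), both at an unadjusted p under 0.05 and neither called. In no comparison between genotypes did the replicate block change a member's call.

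The profile most like that of Alas1 was that of a granulocyte gene. Among 7292 genes with a mean normalised count of at least 50, Alas1 was closest over the 24 libraries to Elane, neutrophil elastase (Pearson r = 0.974 on the log2 scale), Igsf6 (0.972) and P4hb, a protein disulfide isomerase of the endoplasmic reticulum (0.971). After group means were removed the closest were Elane (0.962), Tifab (0.958) and P4hb (0.948). The libraries share treatment and depth, so these values describe likeness and carry no test. Elane had 140.0 to 1766 normalised counts in the 6 poly(I:C) libraries ending in _d and 74.6 to 898 in the 6 PBS libraries. It had 462 to 979 in the 4 poly(I:C) libraries ending in _d_2 and 13.4 to 106 in the 8 PBS libraries. The PBS libraries with the highest Elane, replicate 6 of FancgKO (898) and of WT (682), were those with the highest Alas1.

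**Figure D4:**
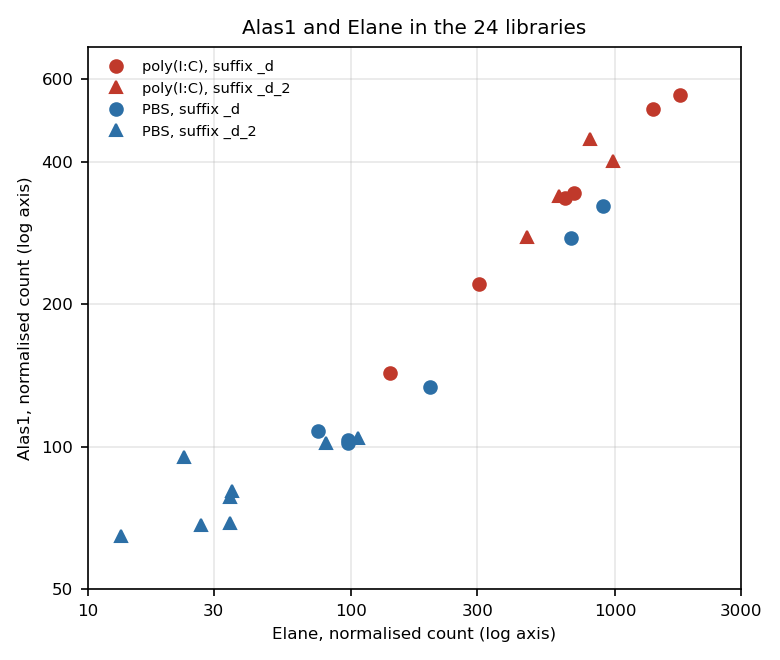
Normalised count of Alas1 against that of Elane in the 24 libraries, both on log axes, with poly(I:C) in red, PBS in blue, circles for _d and triangles for _d_2. Libraries of both treatments lie along 1 band (r = 0.974 on the log2 scale), and the 2 PBS libraries with Alas1 at 323 and 276 lie among the poly(I:C) libraries.

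The other members had other neighbours over the 24 libraries. Cpox was closest to Kdelr1 (r = 0.909), Fech to Snrpd3 (0.859), Urod to the replication helicase subunit Mcm3 (0.897), Uros to Ctsd (0.793), Alad to the histone gene Hist1h3e (0.915) and Ppox to Adcy7 (0.930). Among the members, the highest values were those of Alad with Urod (0.814), Alas1 with Fech (0.771) and Alas1 with Cpox (0.736), and the lowest that of Cpox with Ppox (-0.54). After group means were removed these were 0.841, 0.599, 0.435 and -0.56, in the same order.

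Genes that carry heme intermediates, or that partner the heme enzymes, rose in part. Of 19 in the list 16 were tested, and 7 were called higher and 1 lower with poly(I:C), with a median log2 difference of 0.23, beside 11.9% of all genes called higher and 11.6% called lower. Abcb10, a mitochondrial transporter needed for heme synthesis in red cell precursors, averaged 128 ± 21.3 normalised counts with poly(I:C) (SD, n = 10) and 76.0 ± 16.0 with PBS (n = 14), a log2 difference of 0.77 ± 0.12 (limma adjusted p = 6.07e-04). Tmem14c, which moves protoporphyrinogen in the mitochondrion, averaged 153 ± 33.0 with poly(I:C) and 91.8 ± 23.1 with PBS (0.75 ± 0.14, limma adjusted p = 0.0012). The gene called lower was Slc25a37, mitoferrin 1, the mitochondrial iron importer of red cell precursors, at 270.4 ± 12.4 with poly(I:C) and 328 ± 41.6 with PBS (-0.27 ± 0.07, limma adjusted p = 0.013). Pgrmc1, a partner of ferrochelatase (0.25), and Snx3 (0.32) were also called higher. The remaining calls were Tspo2 (2.31), Tspo (0.93) and Slc48a1 (0.42), named after their values were seen. The glycine carrier gene Slc25a38 (0.24 ± 0.24) and the heme exporter gene Flvcr1 (0.22 ± 0.12) were not called.

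Iron supply genes gave 5 higher and 0 lower calls among 20 tested, with a median of 0.20, beside the same 11.9% and 11.6% over all genes. The 5 were Slc40a1, the iron exporter ferroportin (1.39), Steap3, the endosomal iron reductase (1.01), Slc11a2, the divalent metal transporter (0.63), and Glrx5 (0.41) and Nfs1 (0.31) of iron-sulfur cluster assembly, all named after their values were seen. Tfrc, the transferrin receptor, averaged 642 ± 168 with poly(I:C) and 537 ± 96.7 with PBS, a log2 difference of 0.23 ± 0.14 (limma adjusted p = 0.24). The iron sensors Aco1 (0.23 ± 0.09, limma adjusted p = 0.070) and Ireb2 (-0.07 ± 0.10, limma adjusted p = 0.63) were not called either.

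Heme breakdown genes and targets of NRF2, the regulator of the antioxidant response, gave 2 higher and 0 lower calls among 14 tested, with a median of 0.17, a share near the 11.9% of all genes called higher. These were Blvrb, a biliverdin reductase, at 21.0 ± 8.74 with poly(I:C) and 11.1 ± 4.90 with PBS (0.88 ± 0.26, limma adjusted p = 0.019), and Gclm of glutathione synthesis, at 431 ± 92.0 with poly(I:C) and 311 ± 39.8 with PBS (0.45 ± 0.10, limma adjusted p = 0.0042). Hmox2, the constitutive heme oxygenase, averaged 82.4 ± 11.1 with poly(I:C) and 88.8 ± 13.7 with PBS (-0.11 ± 0.10, limma adjusted p = 0.43). Bach1, the heme-sensing repressor of Hmox1, differed by 0.01 ± 0.09 and Nfe2l2, which encodes NRF2, by 0.26 ± 0.10 (limma adjusted p = 0.94 and 0.073). Within the libraries ending in _d, limma called none of the genes of these lists.

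Markers of maturing blood lineages moved with the same contrast. Of 26 erythroid genes, Blvrb again among them, 19 were tested and 13 were called higher, with a median log2 difference of 1.32. Among them were Car1 (2.47), Klf1 (1.92), the erythropoietin receptor gene Epor (1.51) and Gata1 (1.44), while Car2 (-0.08), Nfe2 (0.05) and Tal1 (0.04) were not called. Their summed level was 1875 to 3474 normalised counts with poly(I:C) and 1278 to 2424 with PBS. The alpha globin gene Hba-a1 had at most 2.17 with poly(I:C) and 2.59 with PBS, beside the 2 reads of Alas2. Of 11 granulocyte genes 6 were tested and all 6 were called higher, with a median of 1.76, among them Elane (3.06), Mpo (1.78), Ctsg (1.75) and Prtn3 (1.74). Their summed level was 5708 to 22406 with poly(I:C) and 1424 to 13547 with PBS, and the late granule genes Ngp, Camp, Ltf and Retnlg averaged under 2 in either treatment. In any of these lists a gene can pass the filter through its poly(I:C) libraries alone. S100a8, named after its values were seen, averaged 8.00 ± 6.89 with poly(I:C) and 1.72 ± 1.95 with PBS, so its call is not independent of the filter. Elane, Mpo, Prtn3, Ctsg and Ms4a3 averaged 65.8 or more with PBS. Of 8 mast cell and basophil genes 4 were called higher (summed level 419 to 833 with poly(I:C) and 143 to 581 with PBS).

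Of 5 macrophage genes tested 2 were called higher (summed level 109 to 239.6 with poly(I:C) and 59.5 to 278 with PBS), and C1qa had a median of 0 in both treatments. Of 7 megakaryocyte genes 2 were called higher and 1 lower, with summed levels of 254 to 892 with poly(I:C) and 233 to 869 with PBS. Of 3 B cell genes 0 were called (limma adjusted p of 0.13 or more), and the 1 T cell gene tested, Lck, was lower (-1.10). Of 9 sort gate and stem cell genes 7 were called lower (summed level 2518 to 4614 with poly(I:C) and 3431 to 6722 with PBS). They included Flt3 (-1.11), Hlf (-1.17), Meis1 (-0.69) and Kit (-0.26). The part of the erythroid, granulocyte and mast cell signals, of depth and of the title ending in the differences of Alas1, Cpox and Fech was not tested.

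**Figure D5:**
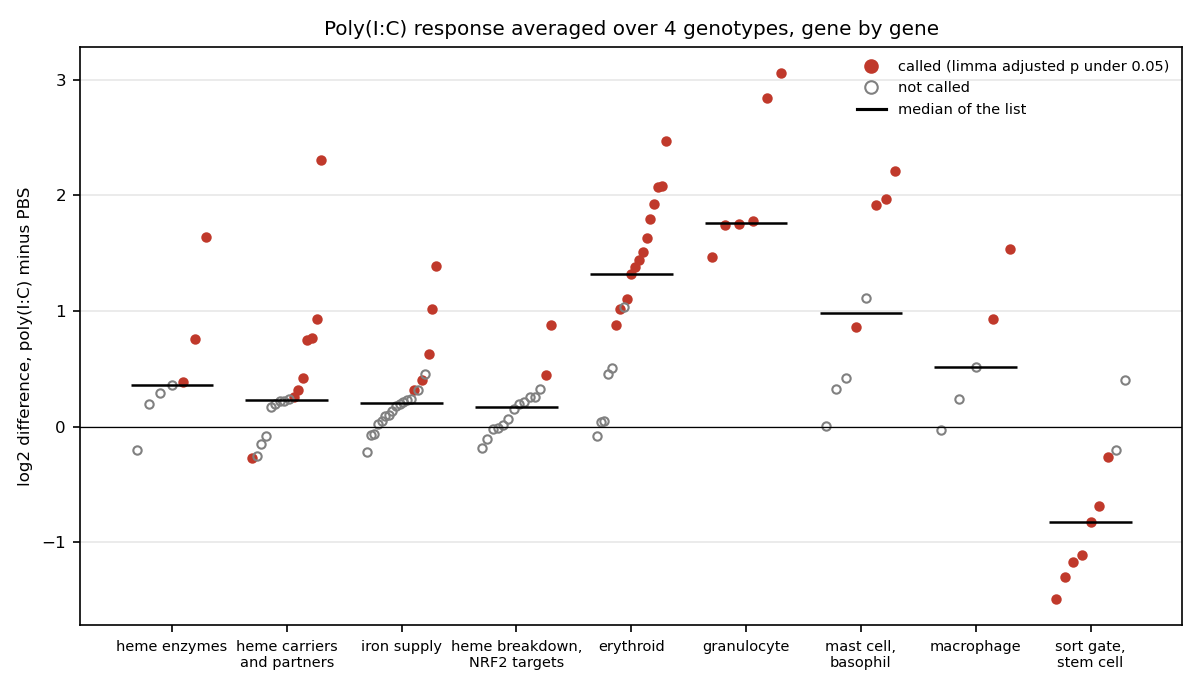
Log2 difference between poly(I:C) and PBS, averaged over the 4 genotypes, for each tested gene of the heme, iron and cell type lists, with called genes as filled red points (limma adjusted p under 0.05), others as open grey points and the median of each list as a line. The medians are 0.36 for the heme enzymes, 0.23 for carriers, 0.20 for iron supply, 0.17 for breakdown and NRF2 targets, 1.32 for erythroid, 1.76 for granulocyte and -0.83 for sort gate and stem cell genes.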

How the data were processed

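The deposited values are a signal, named normalized counts by the authors in the file name, with 1 column per library. STAR and mm10 are listed per the submitters' processing notes. The counter, its use of strand and UMIs, and the normalisation tool are not given in the sources used here. Within each library all values were multiples of the value of 1 read at a relative tolerance of 1e-06, which gave back whole reads for 100% of values. Of 26267 genes, 16217 were named in the file, 10006 from the GENCODE vM21 annotation and 44 by neither.

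The members and the gene lists (13 lists, 152 genes, 146 in the file) were chosen with earlier results of these data known. The filter (normalised count of 10 or more in 2 or more libraries) left 12628 genes. Group means of log2(normalised count + 1) were fitted over 24 libraries in 8 groups by limma 3.58.1 (trend, R 4.3.3), in 19 comparisons, two-sided, with Benjamini-Hochberg adjustment at 0.05. The recovered read counts from the deposited table were tested with edgeR 4.0.16, which called 3622 genes in the averaged poly(I:C) comparison, and DESeq2 1.42.0, which called 3697, against 2974 by limma. Other alternatives were pseudocounts, filters, scalings, the replicate block, title ending and Xist as covariates, array weights, no trend, the compared groups alone and leaving out each library. Fits within each title ending were chosen after seeing the data. The steps were tested on simulated data. Genes named are the members, a set list of heme, iron and lineage genes, the 4 most abundant tested genes of each list and the nearest profiles of each member, with exceptions marked. Some genes under this rule are not reported here.

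Pairing of replicate numbers was judged from the data, since the labels state none. After group means were removed, same-numbered libraries correlated at a median of 0.343 over 61 pairs and other libraries at -0.163 over 189 pairs. Same-numbered libraries always share the title ending, so these medians do not separate the number from the ending. The highest value between libraries of other numbers was 0.516, and that pair had the same ending. A comparison counted as paired where it had 3 or more pairs, each above 0.1, as for poly(I:C) in WT (0.231 to 0.448) and the loss of Fancg averaged (0.172 to 0.617). Other tools were python 3.11.15, numpy 2.4.6, pandas 2.3.3 and matplotlib 3.10.9. Promoter sequences are from RefSeq (GRCm38.p6).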

Additional observations from a re-analysis of the deposited data

Results flagged for a closer look

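Fech in FancgKO PBS replicate 6 stood apart from the other 3 libraries of its group, at a normalised count of 111 against 75.1 to 79.9, a gap of 0.868 of the group's range. Chance flags about 1 in 20 groups, and 16 groups of members and treatments were examined.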

How the results depend on the processing

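Averaged poly(I:C) gave 3 members called, 0 within _d, and 5 (4 higher, with Urod, and 1 lower, Ppox) with the title ending (suffix) as a covariate. The other settings that kept all libraries gave 3 or 4. The outcome for Ppox differed from the main fit in 2 of 15 alternative settings, the suffix covariate among them. Leaving out each library gave 2 to 4, the lower count without FancgKO_Mdm4Tg poly(I:C) replicate 8 or Mdm4Tg poly(I:C) replicate 8, where Fech was lost. Alas1 and Cpox kept their calls in all of these settings except within _d. For the averaged comparison, the share of all genes called with the suffix covariate is not reported here. The replicate block, whose numbers counted as pairs only in WT among the poly(I:C) comparisons, left 3 members called in the averaged comparison and moved poly(I:C) in WT to 2 members, in Mdm4Tg to 2 and in FancgKO_Mdm4Tg to 1, against 0 without it. Array weights gave 2 members in WT and 2 in Mdm4Tg, the suffix covariate 1 in WT, and only the compared groups 1 in Mdm4Tg. Within _d_2 each genotype had 1 poly(I:C) library, so calls by genotype there are not given. Leaving out each library gave 0 to 1 in WT, the call being Alas1 without WT PBS replicate 6 or FancgKO poly(I:C) replicate 7. Over all genes the averaged comparison called 2974, against 4860 with array weights, 0 within _d and 1554 without FancgKO_Mdm4Tg poly(I:C) replicate 8. In WT it was 2, against 869 with the block, 1659 with array weights and 350 with the suffix covariate. In Mdm4Tg it was 0, against 612 with the block, 597 with array weights and 23 with only the compared groups. In FancgKO it was 0, and in FancgKO_Mdm4Tg it was 0, against 136 with the block. Alas1 in FancgKO differed by a log2 of 0.94 with the block, against 1.26 without it. The cause of these shifts was not tested. The log2 difference of Fech in FancgKO_Mdm4Tg turned to -0.53 within _d and ran from -0.29 to 0.71 over the fits without a library, the lowest without FancgKO_Mdm4Tg poly(I:C) replicate 8, against 0.21. Comparisons between genotypes and between responses gave 0 members in every setting run, the block included. Averaged contrasts use all groups, so no fit on only the compared groups could be made for them, and Uros is absent under a mean of at least 50. Depth limits Alas2 and Hmox1, which lay at or under 10 reads in every library.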
